A study of Rattus norvegicus with 11 samples.

Results

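The genes described here are 10 components of bone morphogenetic protein (BMP) signalling in rat lung: the receptors Bmpr2, Bmpr1a and Acvrl1 with the coreceptor Eng, the ligand Bmp6, the secreted inhibitor Grem1, the inhibitory Smads Smad6 and Smad7, and the target genes Id1 and Id3. Every probe set whose annotated symbol was exactly 1 of these names was taken, whatever its values, which gave 19 of the 31042 probe sets tested and 10 of the 14217 genes that they name. Bmp6 and Smad6 had 4 probe sets each, Smad7 had 3, Bmpr2 had 2 and the other 6 genes had 1.

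BMP ligands bring together type II receptors such as Bmpr2 and type I receptors such as Bmpr1a and Acvrl1 (ALK1), and the type I receptor then phosphorylates Smad1, Smad5 and Smad9, which enter the nucleus with Smad4. Id1 and Id3, which encode inhibitors of DNA-binding helix-loop-helix factors, are classic targets, and so are Smad6 and Smad7, which feed back on the receptors. In humans, inherited pulmonary arterial hypertension is linked to mutations in BMPR2, and less often in ACVRL1 and ENG.

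Whole lung of Dahl salt-sensitive rats weighing 250 to 350 g was measured on 11 Affymetrix rat arrays, after the lung vessels had been flushed through the pulmonary artery. The groups were hypoxia at an inspired oxygen of about 9.5% with SU5416, a small-molecule inhibitor of vascular endothelial growth factor receptors (3 arrays), hypoxia at the same oxygen with vehicle (4 arrays), and normoxia in room air with vehicle (4 arrays), all taken at 3.5 weeks. All groups share the salt-sensitive strain, and a further group given sorafenib was not analysed here. Whether every array stands for its own animal is not stated in the labels, so the p-values measure the spread between arrays.

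Values are log2 signals as deposited, in which a difference of 1 is a 2-fold change. Array medians lay between 7.80 and 8.01 log2, and background was taken as 5.72 log2, the 95th percentile of 27 Bacillus control probe sets. Normoxia arrays 1 and 2 stood apart from the rest. Their gap between the 3′ and 5′ beta-actin control probe sets, which widens where RNA is shortened or copied in part, was 2.24 and 1.33 log2, against 0.56 to 0.67 in hypoxia with SU5416, 0.68 to 0.87 in hypoxia, and 0.51 and 0.60 on normoxia arrays 3 and 4. Several differences are given with and without these arrays. All 8 markers of alveolar type II cells, which make surfactant, were measured above background, with a summed level (the log2 of the sum of their linear signals) of 15.96 to 15.99 log2 in hypoxia with SU5416, 15.77 to 15.99 log2 in hypoxia and 15.80 to 16.17 log2 in normoxia.

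The promoters of 8 of the 10 genes were found in a RefSeq table of build GRCr8 that spans 250 bases before to 50 bases after each start. Those of Acvrl1 and of Smad6, whose brightest probe set separated hypoxia with SU5416 from normoxia, were not found. Some of the promoters found are shown 5′ to 3′ on the strand of the gene. They are Eng, Bmp6 and Grem1, whose levels separated hypoxia with SU5416 from normoxia, and Id1, whose level did not. Bmpr1a also separated these groups, but its promoter, which held none of the motifs below, is not shown. Capitals mark 4 short motifs searched on both strands: GGCGCC, a GC-rich element bound by BMP-activated Smads, GTCTG, the Smad4 core element, and ACGTG and GCGTG, which hold the core bound by hypoxia-inducible factors. GCGTG is also the core bound by the aryl hydrocarbon receptor, and overlapping matches run together. The Eng window is chr3:36332029-36332328 (plus strand), that of Bmp6 is chr17:26675212-26675511 (minus strand), that of Grem1 is chr3:120978270-120978569 (minus strand) and that of Id1 is chr3:161671314-161671613 (plus strand).
Eng: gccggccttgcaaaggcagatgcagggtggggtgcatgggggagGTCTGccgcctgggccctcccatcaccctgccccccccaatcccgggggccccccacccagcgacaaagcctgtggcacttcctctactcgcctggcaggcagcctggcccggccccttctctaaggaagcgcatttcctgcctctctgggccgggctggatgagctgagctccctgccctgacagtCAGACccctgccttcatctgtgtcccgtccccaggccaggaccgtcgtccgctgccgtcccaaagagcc
Bmp6: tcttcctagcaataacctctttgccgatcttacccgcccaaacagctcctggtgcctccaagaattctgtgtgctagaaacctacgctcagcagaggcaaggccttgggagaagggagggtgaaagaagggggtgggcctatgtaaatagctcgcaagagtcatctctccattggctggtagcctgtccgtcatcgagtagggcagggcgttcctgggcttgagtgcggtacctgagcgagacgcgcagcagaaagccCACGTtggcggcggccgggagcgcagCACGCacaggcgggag
Grem1: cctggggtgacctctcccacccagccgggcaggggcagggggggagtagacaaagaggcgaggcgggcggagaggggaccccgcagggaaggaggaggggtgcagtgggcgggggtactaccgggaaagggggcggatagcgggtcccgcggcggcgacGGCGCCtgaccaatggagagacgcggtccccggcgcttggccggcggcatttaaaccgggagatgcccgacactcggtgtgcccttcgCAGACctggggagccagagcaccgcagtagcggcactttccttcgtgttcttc
Id1: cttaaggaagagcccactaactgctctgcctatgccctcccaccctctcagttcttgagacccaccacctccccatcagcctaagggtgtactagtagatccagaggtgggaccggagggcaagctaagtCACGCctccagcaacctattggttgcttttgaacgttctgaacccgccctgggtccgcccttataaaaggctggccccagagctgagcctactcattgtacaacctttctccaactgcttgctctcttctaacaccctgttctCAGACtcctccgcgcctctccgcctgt

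Among the 8 promoters found, GGCGCC occurred in 2 (Grem1 and Smad7), against 11% of all 33469 promoters in the table. GTCTG occurred in 3 (Eng, Grem1 and Id1), against 50.1% of all promoters. ACGTG occurred in 1 (Bmp6), against 19.3%, and GCGTG in 4 (Bmp6, Smad7, Id1 and Id3), against 29.7%. These matches describe letters in a short window and were not tested against the expression values. The median GC content of all promoters was 51.7%. Among the promoters found, Bmpr1a lay below it at 30.0%, and the others lay above it, from 55.7% (Id1) to 77.7% (Smad7). The part of GC content in the motif counts was not tested.

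Of the 19 probe sets, 1 passed the test in hypoxia with SU5416 against normoxia, a Smad6 probe set that fell, and 0 passed in either other comparison, hypoxia against normoxia and the 2 hypoxic groups against each other (limma, adjusted p below 0.05). Over all probe sets, 0.0612% were called in hypoxia with SU5416 against normoxia, 0.00644% in hypoxia against normoxia, and 0.0258% when SU5416 was set against hypoxia alone. SAM, a permutation method run with the settings of the series text, called 3 of the 19 in hypoxia with SU5416 against normoxia (1.18% of all probe sets were called, 185 higher and 181 lower). It called 1 of the 19 in hypoxia against normoxia (1.88% of all, every one of the 584 lower) and 0 between the hypoxic groups (0.995% of all, 308 higher with SU5416 and 1 lower). At an unadjusted p below 0.05, 5 of the 19 differed in hypoxia with SU5416 against normoxia (26.3%, against 12.4% of all probe sets). The count was 4 in hypoxia against normoxia (21.1%, against 11% of all) and 3 between the hypoxic groups (15.8%, against 7.47% of all). In both comparisons with normoxia these counts hold 2 Bmp6 probe sets that follow each other (r = 0.88 over the 11 arrays). The counts are therefore not of separate genes. Members were chosen with earlier results of these data known, so the shares are descriptions. Any 2 of the 3 comparisons share the arrays of 1 group. In whole lung, fewer cells of a type and less RNA per cell cannot be told apart.

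Groups without any overlap of arrays were found for 6 of the 19 probe sets in hypoxia with SU5416 against normoxia (31.6%, against 11.9% of all). They were found for 3 in hypoxia against normoxia (15.8%, against 6.13%) and for 4 between the hypoxic groups (21.1%, against 11.5%). The same 2 Bmp6 probe sets are among the 6 and among the 3. The median difference of the 19 was −0.14 log2 in hypoxia with SU5416 against normoxia, where all probe sets had −0.04, and −0.17 log2 in hypoxia against normoxia, where all had −0.04. With SU5416 against hypoxia alone, the median was −0.01 log2 for the 19 and 0.01 log2 for all probe sets. Taking the brightest probe set of each gene, 7 of the 10 genes lay lower in each hypoxic group than in normoxia, and 6 of the 10 lay lower with SU5416 than in hypoxia alone. The 7 were not the same genes in both comparisons with normoxia. Both held Acvrl1 and Id1, whose differences turned positive without normoxia arrays 1 and 2, as did that of Smad7 with SU5416. Of the 19 probe sets, 63.2% lay lower in hypoxia with SU5416 than in normoxia and 68.4% lay lower in hypoxia than in normoxia. The share was 52.6% with SU5416 against hypoxia alone. Of all probe sets, 55.5% lay lower in hypoxia with SU5416 than in normoxia, 57.6% lay lower in hypoxia than in normoxia, and 47.6% lay lower with SU5416 than in hypoxia alone.

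**Figure D1:**
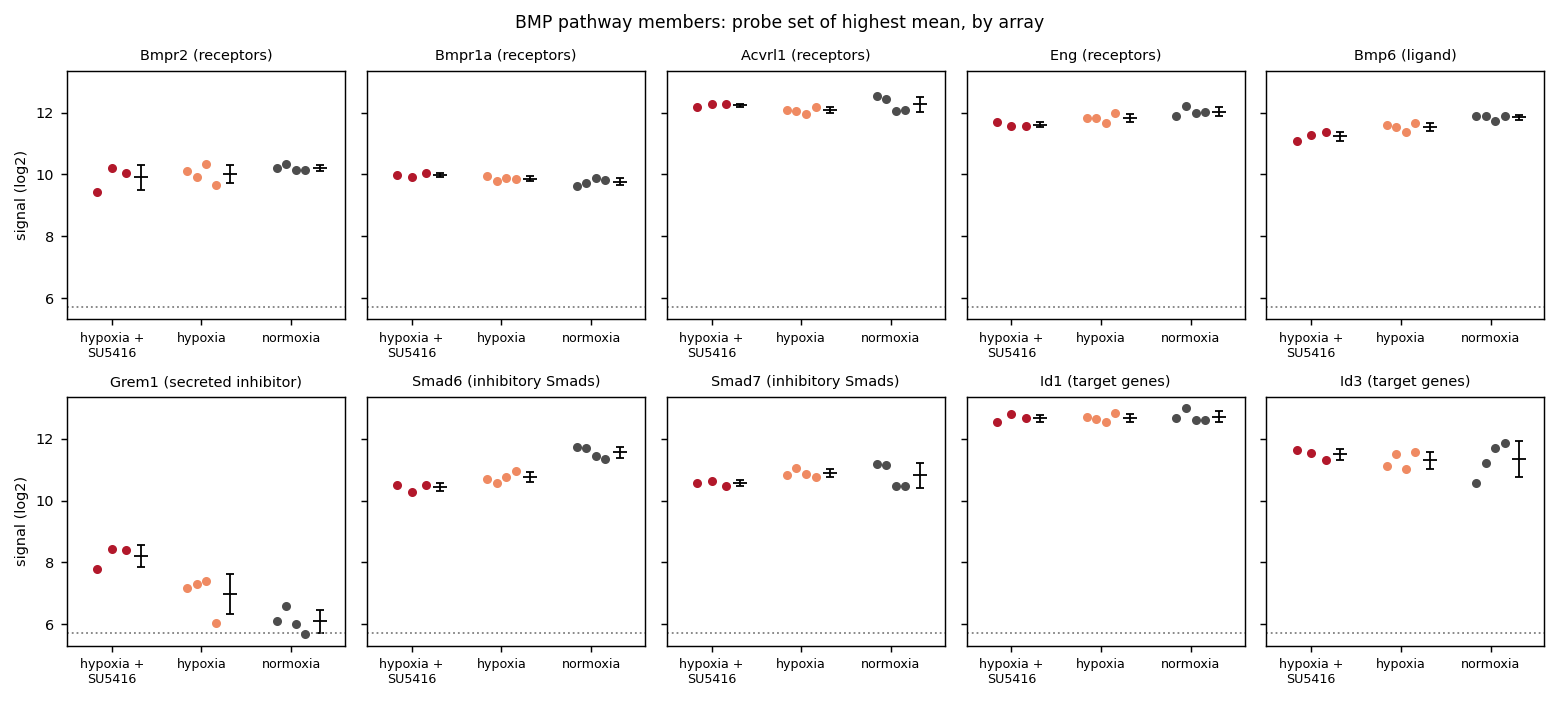
Log2 signal of each of the 10 genes on its brightest probe set, 1 point per array, for hypoxia with SU5416, hypoxia and normoxia from left to right, with bars at the mean ± SD and a dotted line at background (5.72 log2). Smad6 and Bmp6 were lower and Grem1 higher in hypoxia with SU5416 than in normoxia with no overlap of arrays, while Id1 and Id3 overlapped.

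Bmpr2, the type II receptor, read 9.44, 10.20 and 10.06 log2 in hypoxia with SU5416, 10.11, 9.91, 10.34 and 9.66 log2 in hypoxia, and 10.22, 10.35, 10.13 and 10.14 log2 in normoxia on its brighter probe set. The 3 groups overlapped, and 1 array with SU5416 and 1 hypoxia array were the lowest. The difference was −0.31 log2 in hypoxia with SU5416 against normoxia (SE 0.20, adjusted p = 0.57) and −0.20 log2 in hypoxia against normoxia (SE 0.19, adjusted p = 0.726). Their 95% intervals ran from −0.77 to 0.15 and from −0.63 to 0.22 log2, and both included 0. On this probe set, 1376843_at, single arrays moved both values. With 1 array left out at a time the difference in hypoxia with SU5416 against normoxia ran from −0.46 to −0.08 log2, at −0.08 without array 1 with SU5416. For hypoxia against normoxia it ran from −0.32 to −0.09 log2, at −0.09 without hypoxia array 4. Without normoxia arrays 1 and 2 the differences were −0.24 log2 in hypoxia with SU5416 and −0.13 log2 in hypoxia, each against normoxia.

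The dimmer Bmpr2 probe set, 1394667_at, gave 6.96 to 7.27 log2 in hypoxia with SU5416, 5.97 to 7.55 log2 in hypoxia and 6.87 to 7.20 log2 in normoxia. It moved apart from the brighter one over the 11 arrays (r = −0.32), and its difference in hypoxia with SU5416 against normoxia was 0.07 log2 (SE 0.31, adjusted p = 0.952).

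Bmpr1a, the type I receptor ALK3, read 9.99, 9.90 and 10.04 log2 in hypoxia with SU5416, 9.95, 9.79, 9.89 and 9.84 log2 in hypoxia, and 9.63, 9.71, 9.89 and 9.81 log2 in normoxia. Every array with SU5416 lay above every normoxia array, by a small margin. The difference was 0.22 log2 (SE 0.10, adjusted p = 0.412) and did not pass, and without normoxia arrays 1 and 2 it was 0.13 log2.

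Acvrl1, the type I receptor of endothelial cells that binds BMP9 and BMP10, read 12.18, 12.27 and 12.27 log2 in hypoxia with SU5416, 12.09, 12.06, 11.95 and 12.18 log2 in hypoxia, and 12.52, 12.44, 12.04 and 12.07 log2 in normoxia. The normoxia arrays split into the pair with the wide beta-actin gap, which were the highest of all, and the other pair, which lay with the hypoxia arrays. Its difference in hypoxia with SU5416 against normoxia was −0.03 log2 (SE 0.14, adjusted p = 0.955) with all arrays and 0.19 log2 without normoxia arrays 1 and 2, and its sign also turned with median centring (0.02 log2). In hypoxia against normoxia it was −0.20 log2 with all arrays and 0.02 log2 without that pair, and none of these values passed.

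Eng, the endothelial coreceptor endoglin, read 11.69, 11.58 and 11.55 log2 in hypoxia with SU5416, 11.83, 11.81, 11.67 and 11.97 log2 in hypoxia, and 11.89, 12.22, 11.97 and 12.02 log2 in normoxia. The arrays with SU5416 lay below all normoxia arrays, and the hypoxia arrays lay between and overlapped both. Its mean was 11.61 ± 0.07 log2 in hypoxia with SU5416 and 12.03 ± 0.14 log2 in normoxia (SD, n = 3 and 4). The difference of −0.42 log2, 1.34-fold lower, did not pass (SE 0.11, adjusted p = 0.199), nor did that of −0.21 log2 in hypoxia against normoxia (SE 0.11, adjusted p = 0.509).

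Of 15 endothelial marker genes 13 were measured, and none lay below background in all 3 groups. Their summed level was 15.46 to 15.56 log2 in hypoxia with SU5416, 15.59 to 15.68 log2 in hypoxia and 15.50 to 15.78 log2 in normoxia. The median difference of these markers in hypoxia with SU5416 against normoxia was −0.09 log2, with 8 of 13 lower and 0 called. In hypoxia with SU5416 against hypoxia it was −0.09 log2, with 10 of 13 lower, 0 called and summed levels that did not overlap. In hypoxia against normoxia it was 0.01 log2, with 6 of 13 lower and 0 called. Eng, Acvrl1 and Smad6 are all expressed in endothelium, and the part of endothelial content in their values was not tested.

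Bmp6, a ligand best known as the signal by which liver endothelium reports iron stores, had 2 bright probe sets. The brighter read 11.08, 11.27 and 11.36 log2 in hypoxia with SU5416, 11.60, 11.52, 11.36 and 11.66 log2 in hypoxia, and 11.88, 11.90, 11.73 and 11.89 log2 in normoxia. All 7 hypoxic arrays lay below all 4 normoxia arrays, and the hypoxic groups met at 11.36 log2. The mean was 11.24 ± 0.14 log2 in hypoxia with SU5416, against 11.85 ± 0.08 log2 in normoxia (SD, n = 3 and 4), a difference of −0.61 log2 or 1.53-fold lower (SE 0.11, adjusted p = 0.0915). The difference was −0.32 log2 in hypoxia against normoxia (SE 0.10, adjusted p = 0.356), and in hypoxia with SU5416 against hypoxia −0.30 log2 (SE 0.11, adjusted p = 0.599).

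The next Bmp6 probe set, 1388201_at, read 10.05, 10.25 and 10.13 log2 in hypoxia with SU5416, 10.34, 10.20, 9.96 and 10.45 log2 in hypoxia, and 10.53, 10.60, 10.63 and 10.80 log2 in normoxia. It again placed every hypoxic array below every normoxia array, and it followed the brighter one over the 11 arrays (r = 0.88). Its difference was −0.50 log2 in hypoxia with SU5416 against normoxia (SE 0.13, adjusted p = 0.188) and −0.40 log2 in hypoxia against normoxia (SE 0.12, adjusted p = 0.33). No Bmp6 value passed at an adjusted p of 0.05; the brighter probe set did so when dim probe sets were left out of the fit (adjusted p = 0.0227) and with a trended, robust variance (adjusted p = 0.0204). The remaining 2 Bmp6 probe sets were below background on 7 and 8 of the 11 arrays and give no usable level.

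Grem1 encodes gremlin, a secreted protein that binds BMP2, BMP4 and BMP7 and keeps them from their receptors. It read 7.78, 8.43 and 8.42 log2 in hypoxia with SU5416, 7.19, 7.29, 7.41 and 6.03 log2 in hypoxia, and 6.10, 6.58, 6.03 and 5.68 log2 in normoxia. The arrays with SU5416 were above all others, 3 of the 4 hypoxia arrays lay between, and hypoxia array 4 sat among the normoxia arrays, of which 1 was below background. The mean was 8.21 ± 0.37 log2 in hypoxia with SU5416, 6.98 ± 0.64 log2 in hypoxia and 6.09 ± 0.37 log2 in normoxia (SD, n = 3, 4 and 4).

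The Grem1 difference in hypoxia with SU5416 against normoxia, 2.12 log2 or 4.34-fold higher, was the largest of the 19 in size, and it did not pass (SE 0.34, adjusted p = 0.0672). It passed with a trended, robust variance (adjusted p = 0.024) and without hypoxia array 4, which enters this comparison only through the shared spread (adjusted p = 0.0288). In hypoxia with SU5416 against hypoxia it was 1.23 log2, 2.35-fold higher (SE 0.34, adjusted p = 0.442), and in hypoxia against normoxia 0.89 log2, 1.85-fold higher (SE 0.32, adjusted p = 0.377). Without hypoxia array 4 the last was 1.20 log2.

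Gremlin is made by fibroblasts and smooth muscle cells among others. Summed markers of both lay higher on the arrays with SU5416 than on those of normoxia. The summed level of 8 fibroblast markers was 15.10 to 15.20 log2 in hypoxia with SU5416, 14.69 to 15.14 log2 in hypoxia and 14.64 to 15.07 log2 in normoxia, with a median difference of 0.35 log2 in hypoxia with SU5416 against normoxia and 7 of 8 higher. That of 10 smooth muscle markers was 14.53 to 14.70 log2 in hypoxia with SU5416, 14.00 to 14.45 log2 in hypoxia and 14.03 to 14.36 log2 in normoxia, with a median difference of 0.39 log2 and 8 of 10 higher. Markers of macrophages also lay higher, with a summed level of 13.34 to 13.85 log2 in hypoxia with SU5416, 13.00 to 13.14 log2 in hypoxia and 12.46 to 13.21 log2 in normoxia, and 6 of 7 higher with SU5416 than in normoxia. None of these markers was called, 1 of them, the macrophage gene Itgam, lay below background in all 3 groups, and their part in the Grem1 values was not tested.

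**Figure D2:**
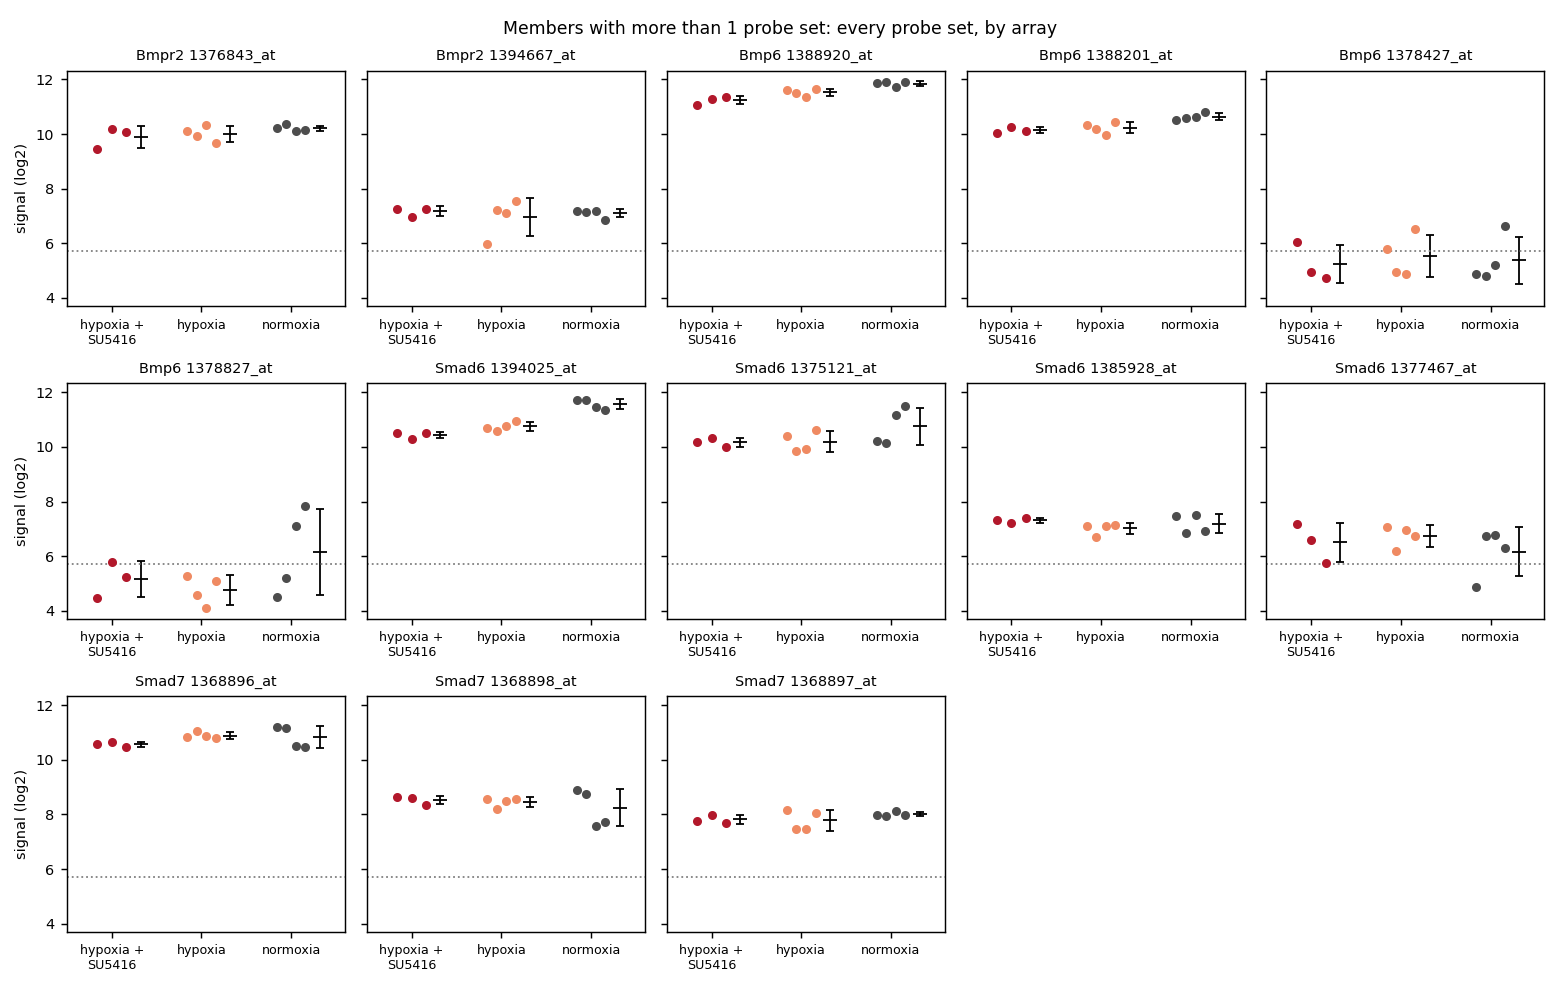
Log2 signal on each probe set of Bmpr2, Bmp6, Smad6 and Smad7, 1 point per array, in the same order of groups with bars at the mean ± SD and a dotted line at background. The 2 bright Bmp6 probe sets show the same order of groups, whereas the 4 Smad6 probe sets do not, and only the brightest of them separates the hypoxic arrays from normoxia.

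Smad6, an inhibitory Smad that chiefly dampens BMP signalling, carried the one call. On its brightest probe set, 1394025_at, it read 10.51, 10.29 and 10.51 log2 in hypoxia with SU5416, 10.70, 10.58, 10.78 and 10.96 log2 in hypoxia, and 11.73, 11.70, 11.45 and 11.36 log2 in normoxia. The 3 groups did not overlap, with the arrays with SU5416 lowest and normoxia highest. It fell by 1.12 log2 in hypoxia with SU5416 against normoxia (SE 0.14, 95% interval −1.43 to −0.82 log2, adjusted p = 0.0276), 2.18-fold lower. The difference was −0.81 log2, 1.75-fold lower, in hypoxia against normoxia (SE 0.13, adjusted p = 0.174), and in hypoxia with SU5416 against hypoxia −0.32 log2 (SE 0.14, adjusted p = 0.642).

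On this probe set the Smad6 difference changed little where an alternative could move it, while its call did not hold. Over 20 alternatives the value in hypoxia with SU5416 against normoxia lay between −1.19 and −0.97 log2. Adjusted p reached 0.192, and 8 of the 20 kept the call. Alternatives that changed only the variance, the probe sets fitted or the hypoxia arrays could not move this value. The mean of the Smad6 probe sets, not among the 20, gave −0.31 log2 (limma, adjusted p = 0.521). On 1394025_at itself, the difference was −0.97 log2 without normoxia arrays 1 and 2 (limma, adjusted p = 0.0696), and −1.01 log2 with the beta-actin gap as a covariate. The fit with the replicate number as a block gave −1.12 log2 (adjusted p = 0.192). With 1 array left out at a time the value lay between −1.19 and −1.05 log2, and the call was lost without normoxia array 1, 2 or 3, hypoxia array 1 or 3, or any 1 array with SU5416.

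The other 3 Smad6 probe sets did not follow the brightest over the 11 arrays (r = 0.42, 0.06 and −0.34). The second, 1375121_at, read 10.19, 10.31 and 10 log2 in hypoxia with SU5416, 10.40, 9.85, 9.91 and 10.62 log2 in hypoxia, and 10.23, 10.14, 11.16 and 11.51 log2 in normoxia. Here only normoxia arrays 3 and 4 were high, while the pair with the wide beta-actin gap lay among the hypoxic arrays. Its difference in hypoxia with SU5416 against normoxia was −0.59 log2 with all arrays (SE 0.34, adjusted p = 0.507) and −1.17 log2 without normoxia arrays 1 and 2 (adjusted p = 0.137). Its difference in hypoxia against normoxia was −0.57 log2 with all arrays and −1.14 log2 without that pair (adjusted p = 0.541 and 0.0946).

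The dim Smad6 probe sets 1385928_at and 1377467_at spanned 6.71 to 7.51 log2 and 4.86 to 7.19 log2 over all arrays. Their differences in hypoxia with SU5416 against normoxia were 0.11 and 0.34 log2 (adjusted p = 0.846 and 0.815). With the mean of the Smad6 probe sets in place of the brightest, the gene differed by −0.31 log2 and was not called. In hypoxia with SU5416 against hypoxia, 1385928_at went the other way from the brightest probe set. Its arrays with SU5416 lay above all hypoxia arrays, by 0.29 log2 in the mean (limma, adjusted p = 0.801).

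Lymphocyte markers had lower means in hypoxia with SU5416 than in normoxia. In hypoxia against normoxia, 8 of 9 T and NK cell markers and 5 of 5 B and plasma cell markers lay lower. The summed levels of both lists in hypoxia overlapped those in normoxia. For T and NK cells the levels with SU5416 overlapped normoxia too. The summed level of 9 markers of T and NK cells was 11.50 to 11.86 log2 in hypoxia with SU5416, 11.60 to 11.78 log2 in hypoxia and 11.73 to 12.18 log2 in normoxia, with 9 of 9 lower in hypoxia with SU5416 than in normoxia. That of 5 markers of B and plasma cells was 10.80 to 10.97 log2 in hypoxia with SU5416, 11.05 to 11.54 log2 in hypoxia and 11.47 to 11.52 log2 in normoxia, with 5 of 5 lower. None was called, and their part in the Smad6 values was not tested.

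Smad7, which dampens both BMP and TGF-beta signalling, read 10.58, 10.65 and 10.46 log2 in hypoxia with SU5416, 10.82, 11.07, 10.87 and 10.78 log2 in hypoxia, and 11.20, 11.15, 10.49 and 10.46 log2 in normoxia on its brightest probe set. Normoxia arrays 1 and 2 were the highest of the 11 and normoxia arrays 3 and 4 were among the lowest. The arrays with SU5416 lay below all hypoxia arrays, by −0.32 log2 in the mean (SE 0.20, adjusted p = 0.787).

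On this probe set both comparisons with normoxia moved with that pair of normoxia arrays. In hypoxia with SU5416 against normoxia it gave −0.26 log2 with all arrays (adjusted p = 0.627) and 0.09 log2 without arrays 1 and 2. It gave 0.06 log2 in hypoxia against normoxia with all arrays (adjusted p = 0.935) and 0.41 log2 without them (adjusted p = 0.147). A second probe set, 1368898_at, shared the pattern: 8.91 and 8.74 log2 on normoxia arrays 1 and 2, 7.58 and 7.74 log2 on arrays 3 and 4, and 8.19 to 8.65 log2 on the 7 hypoxic arrays. Its difference in hypoxia with SU5416 against normoxia was 0.29 log2 with all arrays (adjusted p = 0.745) and 0.87 log2 without arrays 1 and 2 (adjusted p = 0.102). The difference in hypoxia against normoxia was 0.21 log2 with all arrays (adjusted p = 0.826) and 0.80 log2 without them (adjusted p = 0.0788). The third, 1368897_at, lay between 7.45 and 8.18 log2 on all arrays and did not share it.

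**Figure D3:**
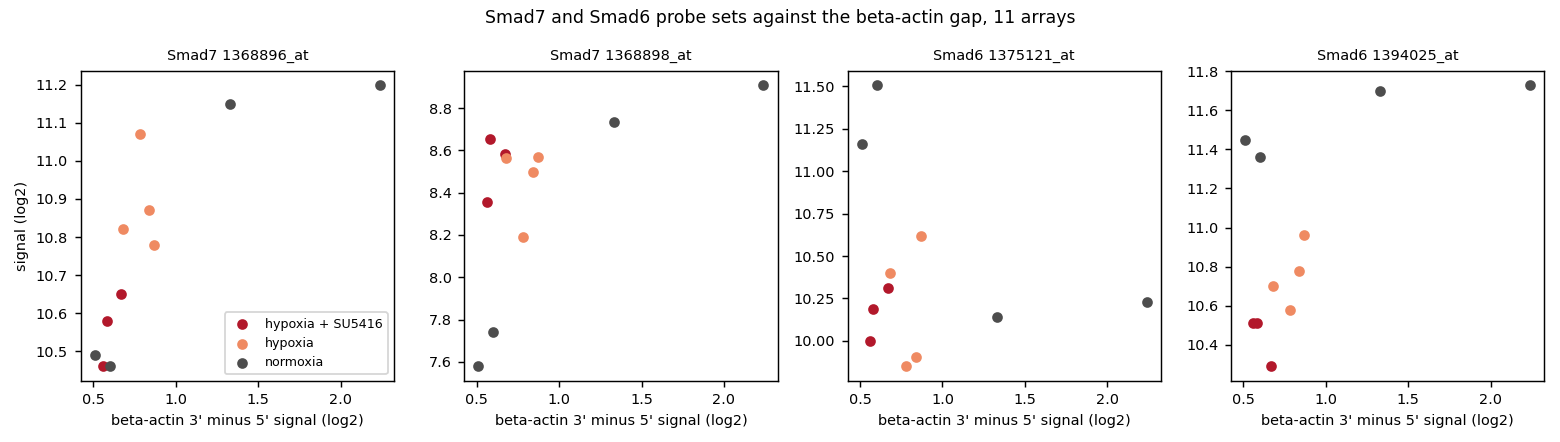
Log2 signal of 2 Smad7 and 2 Smad6 probe sets against the gap between 3′ and 5′ beta-actin control probe sets in log2, 1 point per array, with the groups marked. Normoxia arrays 1 and 2, at gaps of 2.24 and 1.33 log2, carry the highest values of both Smad7 probe sets and of Smad6 1394025_at, but not of Smad6 1375121_at; 9 arrays lie at gaps below 0.9 log2.

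Id1 read 12.55, 12.79 and 12.66 log2 in hypoxia with SU5416, 12.70, 12.63, 12.54 and 12.83 log2 in hypoxia, and 12.66, 12.99, 12.61 and 12.61 log2 in normoxia. The 3 groups overlapped throughout, with means of 12.67 ± 0.12 log2 in hypoxia with SU5416, 12.68 ± 0.12 log2 in hypoxia and 12.72 ± 0.18 log2 in normoxia (SD, n = 3, 4 and 4). The difference was −0.05 log2 in hypoxia with SU5416 against normoxia, with a 95% interval of −0.34 to 0.23 log2 (adjusted p = 0.906), and −0.04 log2 in hypoxia against normoxia, with an interval of −0.31 to 0.22 log2 (adjusted p = 0.927). The sign of the second turned with median centring (0.05 log2), and no direction is given.

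Id3 varied more between arrays of 1 group. It read 11.64, 11.54 and 11.31 log2 in hypoxia with SU5416, 11.13, 11.50, 11.03 and 11.57 log2 in hypoxia, and 10.58, 11.22, 11.71 and 11.87 log2 in normoxia. The normoxia arrays held both the lowest and the highest values, the lowest being array 1 with the widest beta-actin gap. Its difference in hypoxia with SU5416 against normoxia was 0.15 log2 (interval −0.48 to 0.79, adjusted p = 0.868) with all arrays and −0.29 log2 (adjusted p = 0.536) without normoxia arrays 1 and 2. The difference in hypoxia against normoxia was −0.04 log2 (interval −0.63 to 0.55, adjusted p = 0.974) with all arrays and −0.48 log2 (adjusted p = 0.24) without that pair.

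**Figure D4:**
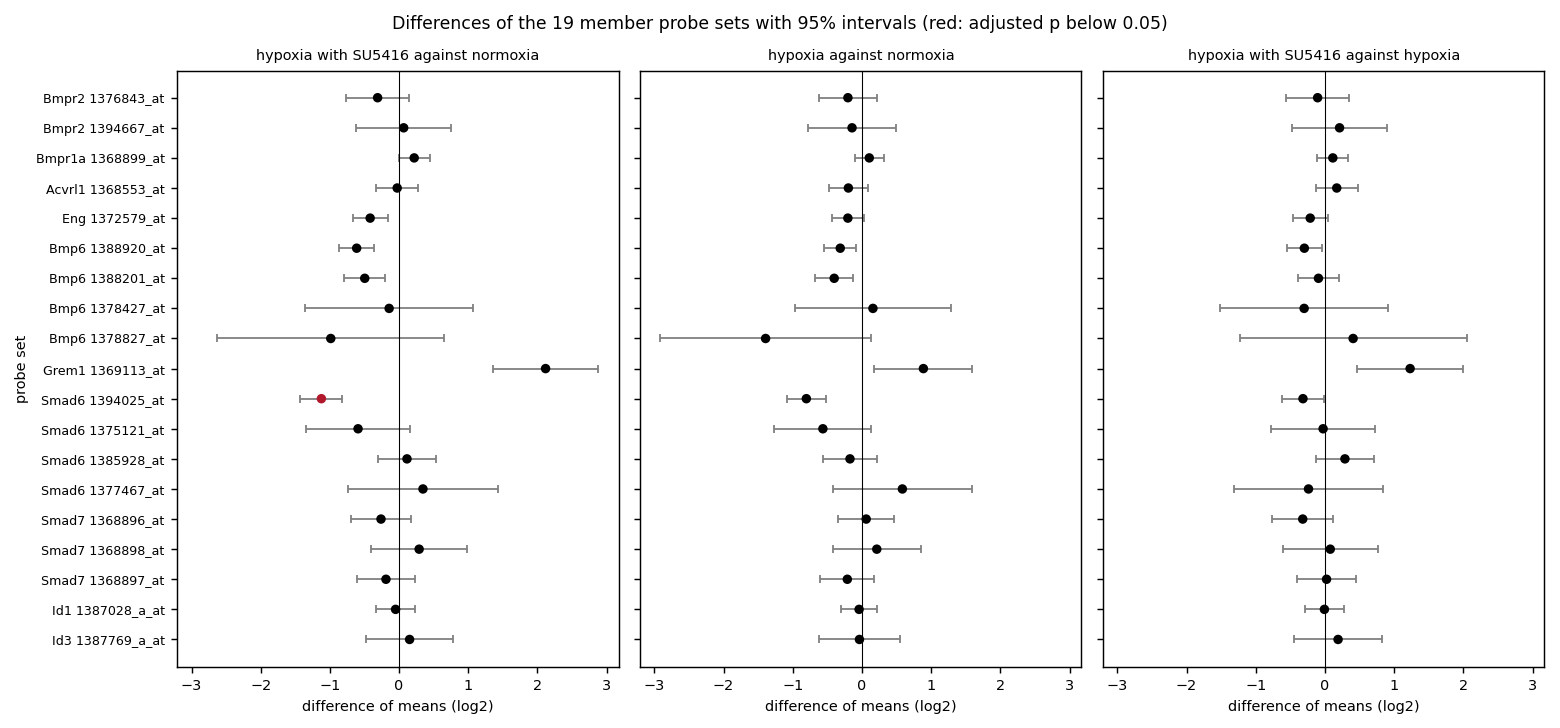
Difference in mean log2 signal for all 19 probe sets with its 95% interval, in 3 panels: hypoxia with SU5416 minus normoxia, hypoxia minus normoxia, and hypoxia with SU5416 minus hypoxia. The brightest Smad6 probe set in the first panel, at −1.12 log2, is the only one in red, the colour of an adjusted p below 0.05; Grem1, at 2.12 log2, lies farthest from 0.

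A list of 69 other genes of the pathway, of which 58 were measured, gave 0 calls in any comparison. At an unadjusted p below 0.05, 3 of the 58 were higher and 6 lower in hypoxia with SU5416 against normoxia. The counts were 3 higher and 7 lower in hypoxia against normoxia, and 2 higher and 3 lower in hypoxia with SU5416 against hypoxia. Of all probe sets, 4.82% were higher and 7.57% lower at that level in the first comparison, 3.33% higher and 7.64% lower in the second, and 4.02% higher and 3.45% lower in the third. The median difference of the 58 was −0.06 log2 in the first, −0.03 log2 in the second and −0.06 log2 in the third.

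The genes named for each comparison are the 4 of smallest adjusted p. In hypoxia with SU5416 against normoxia, the activin type II receptor Acvr2b read 7.27, 7.18 and 7.10 log2, against 8.44, 8.35, 7.82 and 7.79 log2 in normoxia. These arrays did not overlap, and the difference was −0.92 log2 (SE 0.22, adjusted p = 0.159). In hypoxia against normoxia, where the arrays did overlap, it was −0.67 log2 (SE 0.21, adjusted p = 0.33). The higher pair of normoxia values, 8.44 and 8.35 log2, came from arrays 1 and 2, which have the wide beta-actin gap. Fstl3, a secreted binder of activin, differed by 0.56 log2 (adjusted p = 0.199). Htra1, a secreted protease that dampens TGF-beta family signals, differed by 0.40 log2 (adjusted p = 0.199). The endothelial and blood transcription factor Gata2 differed by −0.55 log2 (adjusted p = 0.237). Gata2 also split within normoxia, at 11.45 and 11.23 log2 on arrays 1 and 2 and 10.78 and 10.93 log2 on arrays 3 and 4. Differences without normoxia arrays 1 and 2 were not computed for the genes of this list.

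In hypoxia against normoxia, Chrd, the BMP-binding inhibitor chordin, read 6.30, 6.57, 6.58 and 6.40 log2, against 6.89, 7.22, 7.48 and 6.93 log2 in normoxia. The groups did not overlap, and the difference was −0.67 log2 (SE 0.15, adjusted p = 0.249). Bmper, a secreted BMP binder of endothelial cells, differed by −0.53 log2 (adjusted p = 0.316), and the homeobox target gene Msx1 by 0.39 log2 (adjusted p = 0.31). With SU5416 added to hypoxia, Chrd read 7.06, 7.19 and 6.96 log2, above every hypoxia array and within the range of normoxia. That difference was 0.61 log2 (SE 0.16, adjusted p = 0.441). In the same comparison the ligands Bmp8a and Bmp4 differed by −1.35 and −0.35 log2 (adjusted p = 0.451 and 0.57), and Msx1 by −0.33 log2 (adjusted p = 0.583). Bmp8a lay below background on all arrays with SU5416.

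The Smads that carry the signal, Smad1, Smad5 and Smad9 with Smad4, were all measured above background, and none reached an unadjusted p of 0.05 in any of the 3 comparisons. The same held for the 5 coreceptors measured. Id2 and Id4, the other members of the Id family, differed by 0.16 and −0.06 log2 in hypoxia with SU5416 against normoxia (adjusted p = 0.797 and 0.912).

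**Figure D5:**
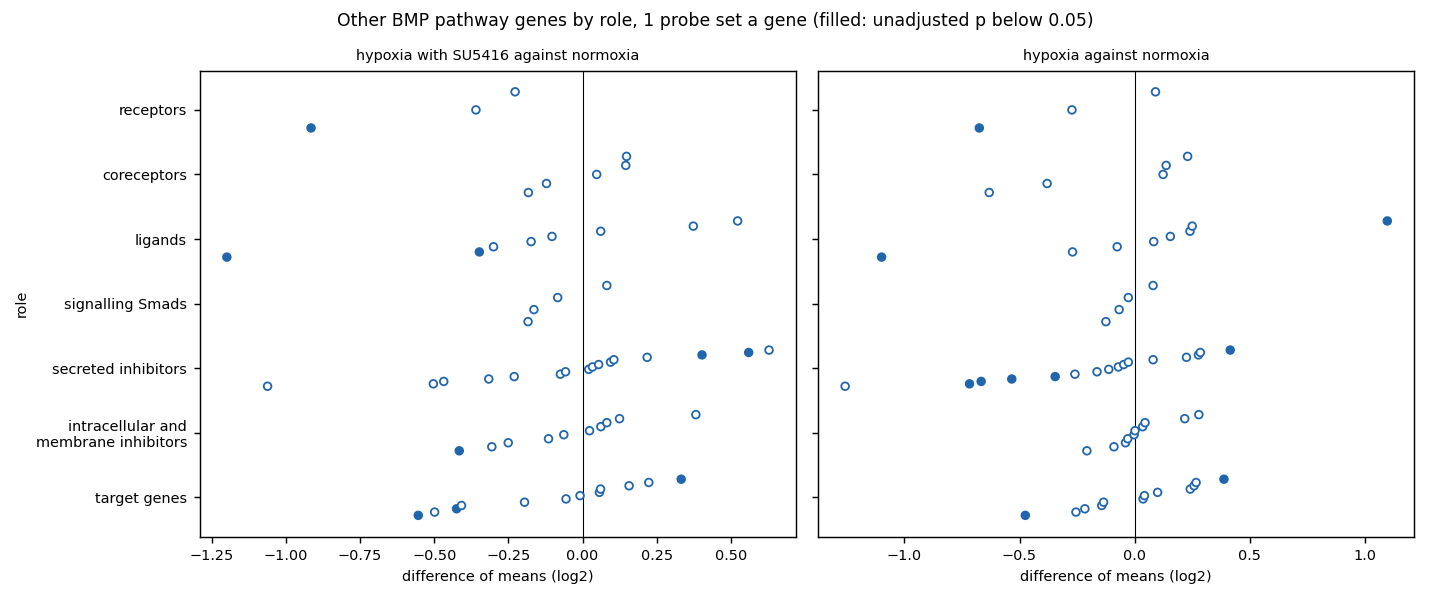
Difference in mean log2 signal of the 58 other pathway genes measured, grouped by role, for hypoxia with SU5416 minus normoxia and hypoxia minus normoxia, 1 point per gene and filled where the unadjusted p was below 0.05. No gene passed after adjustment, and filled points lie on both sides of 0, with more below it.

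For Smad6, Bmpr2 and Id1, the genes most alike over the 11 arrays were ranked by Pearson r among 12677 other genes above background. For Smad6 they were Ecm1 (r = 0.97), Sema3g (0.96), the B-cell scaffold gene Bank1 (0.96) and Tmcc2 (0.95). All 4 had differences below 0 in hypoxia with SU5416 against normoxia, from −1.43 to −0.40 log2, of which none was called. This direction follows from picking genes like a probe set that separated the groups. With each array's group mean taken off, their r with Smad6 was 0.67, 0.87, 0.77 and 0.75. For Bmpr2 they were Zbtb21 (0.92), Alkbh1 (0.91), Urb1 (0.90) and Slc35a5 (0.89). For Id1 they were Stap2 (0.90), Igfbp7 (0.83), Rpl37a (0.82) and Cblc (0.81). The 11 arrays fall into the same groups for every gene, so the values are descriptions and carry no test.

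Among the 10 genes themselves, on brightest probe sets, Bmp6 was most like Smad6 (r = 0.88) and then Eng (r = 0.85) over the 11 arrays, and Grem1 ran opposite to Bmp6 (r = −0.85). With each array's group mean taken off, these became 0.20, 0.33 and −0.15, so the likeness lies between the groups more than within them.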

How the data were processed

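Gene expression was measured in rat lung on 11 arrays. The values were deposited as log2 signals, 1 per probe set and array; the submitters' processing notes name RMA without a version. On every array the mean of the linear values, trimmed by 2% at each end, was 500 to the nearest unit, and array distributions differed in shape, which a quantile step would remove, so the summarisation is uncertain. The deposited log2 values were used without further normalization. Array numbers limit the precision.

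Of 31099 probe sets, 57 controls were set aside. Symbols came from the array's annotation: 20826 probe sets name 1 gene, 436 several and 9780 none. All 11 arrays entered 1 limma fit (3.58.1, R 4.3.3; lmFit, eBayes; 8 residual degrees of freedom) with a mean per group. P-values were two-sided and Benjamini-Hochberg adjusted over 31042 probe sets; a probe set was called below 0.05. Differences were taken between arrays, never between probe sets. Levels across probe sets served to pick the brightest of a gene, to average a gene's probe sets and to sum marker lists.

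Members, lists and tests were chosen with earlier results of these data known. All member probe sets were named. Of the other pathway genes, on their brightest probe set, the rule names called ones and, per comparison, the 4 of smallest adjusted p above background in 1 or both groups. For Bmpr2, Smad6 and Id1 it names the 4 genes of highest Pearson r over the 11 arrays. A marker list's summed level is the log2 of the sum of its linear signals, 1 probe set a gene. Alternatives covered normalization, filters, variance, weights, replicate number, arrays left out, the beta-actin gap, thresholds and SAM with the delta of 0.639 and fold of 1.4 in the series text. The fit was tested on simulated data. Figures were drawn with matplotlib 3.10.9 under Python 3.11.15, from tables read by pandas 2.3.3.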

Additional observations from a re-analysis of the deposited data

Results flagged for a closer look

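Of the 38 sets of 4 arrays from 1 group on 1 probe set, 5 held an array far from the other 3, where chance gives about 1 in 20. Grem1 read 6.03 log2 on hypoxia array 4, against 7.19 to 7.41 log2 on the other hypoxia arrays. Id1 read 12.99 log2 on normoxia array 2, which has a wide beta-actin gap, against 12.61 to 12.66 log2 on the other normoxia arrays. Bmp6 on its brightest probe set read 11.73 log2 on normoxia array 3, against 11.88 to 11.90 log2 on the others. The dim Bmpr2 probe set 1394667_at read 6.87 log2 on normoxia array 4, against 7.16 to 7.20 log2, and the Smad6 probe set 1385928_at read 6.71 log2 on hypoxia array 2, against 7.10 to 7.15 log2.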

How the results depend on the processing

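The number of the 19 probe sets called in hypoxia with SU5416 against normoxia, 1 as reported, was 3 with a trended, robust variance, 3 at a threshold of 0.1, 3 by SAM and 2 with dim probe sets left out. It was 0 in a fit of only the 2 groups compared, 0 with the replicate block, 0 with the beta-actin gap as a covariate, 0 without normoxia arrays 1 and 2, and 0 to 2 with 1 array left out at a time. It stayed at 1 with quantile normalization, median centring and array weights. In hypoxia against normoxia SAM called 1 and every limma setting 0, and in hypoxia with SU5416 against hypoxia every setting, SAM included, called 0. Over all probe sets the calls in hypoxia with SU5416 against normoxia ran from 6 (replicate block) to 214 (dim probe sets left out) with limma and reached 366 with SAM. They ran from 0 to 99 in hypoxia against normoxia, with 99 reached without normoxia arrays 1 and 2, and SAM called 584. In hypoxia with SU5416 against hypoxia they ran from 6 to 24, and 309 with SAM. The brightest Smad6 and Bmp6 probe sets and Grem1 kept their direction under all alternatives in all 3 comparisons. The cause of the lost and gained calls was not tested.

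Some differences that were never called changed sign, and the cause was not tested. In hypoxia with SU5416 against normoxia they were Acvrl1 (0.021 log2 with median centring, 0.046 with array weights, 0.14 with the beta-actin covariate, 0.185 without normoxia arrays 1 and 2) and Id3 (−0.038 with array weights, −0.24 with the covariate, −0.29 without those arrays). Without those arrays they also included Smad6 1377467_at (−0.019, and −0.17 with the covariate), Smad7 1368896_at (0.088) and Id1 (0.057), and with the replicate block Bmp6 1378427_at (0.23). In hypoxia against normoxia they were Id1 (0.0475 with median centring, 0.065 without those arrays), Id3 (0.0525 with median centring), Acvrl1 (0.015 without those arrays) and Bmp6 1378427_at (−0.072 with array weights, −0.078 with the covariate, −0.3775 without those arrays). With SU5416 against hypoxia alone they were Smad7 1368897_at (−0.031 with quantile normalization, −0.019 with median centring), Smad6 1375121_at (0.0011 with array weights, 0.17 with the block), Id1 (0.0069 with array weights, 0.0041 with the covariate), Bmp6 1378427_at (0.072 with the block) and Bmpr2 as the mean of its probe sets (0.052).

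With 1 array left out at a time, these differences spanned 0. In hypoxia with SU5416 against normoxia the ranges were −0.10 to 0.057 for Acvrl1, −0.091 to 0.72 for Smad6 1377467_at, −0.10 to 0.33 for Id3, −0.1125 to 0.04 for Id1, −0.011 to 0.1705 for Bmpr2 1394667_at and −0.5435 to 0.27 for Bmp6 1378427_at. In hypoxia against normoxia they were −0.17 to 0.576 for Bmp6 1378427_at, −0.094 to 0.048 for Id1, −0.062 to 0.185 for Smad7 1368896_at, −0.0078 to 0.4365 for Smad7 1368898_at, −0.2925 to 0.1375 for Id3 and −0.3415 to 0.18 for Bmpr2 1394667_at. With SU5416 against hypoxia alone they were −0.12 to 0.41 for Bmpr2 1394667_at, −0.14 to 0.11 for Smad6 1375121_at, −0.012 to 0.165 for Smad7 1368898_at, −0.091 to 0.151 for Smad7 1368897_at, −0.26 to 0.12 for Bmpr2 1376843_at, −0.701 to 0.027 for Bmp6 1378427_at, −0.07 to 0.05 for Id1 and −0.58 to 0.14 for Smad6 1377467_at.

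The labels name no pairing of arrays by the replicate numbers in the titles. Over 10 same-numbered pairs the correlation of deviations from group means ran from −0.12 to 0.13, above 0.1 in 2. Of the 11 arrays, 5 correlated best with their own number. No chance level was computed for these values, so they do not settle whether the numbers pair arrays. With the replicate block, Smad6 1394025_at differed by −1.12 log2 in hypoxia with SU5416 against normoxia. The standard error of the members' differences had a median of 0.20 log2 in this comparison, and 2 Bmp6 probe sets were at or below background on most arrays.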

Other observations

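Beyond the genes named by rule, 2 genes of the BMP pathway were chosen after their values were seen. Bmp2, a ligand of Bmpr1a and Bmpr2, averaged 9.70 ± 0.09 log2 in hypoxia with SU5416, 10.43 ± 0.69 log2 in hypoxia and 9.33 ± 0.55 log2 in normoxia (SD, n = 3, 4 and 4). It was thus highest in hypoxia alone, 1.10 log2 above normoxia or 2.14-fold (limma, adjusted p = 0.339), while the difference of hypoxia with SU5416 from hypoxia was −0.72 log2 (adjusted p = 0.735). Tmem100, a BMP9 and ALK1 target of endothelial cells, averaged 12.32 ± 0.06 log2 in hypoxia with SU5416, 12.27 ± 0.30 log2 in hypoxia and 12.75 ± 0.12 log2 in normoxia. Its difference from normoxia was −0.43 log2 in hypoxia with SU5416 (adjusted p = 0.327, groups not overlapping) and −0.48 log2 in hypoxia (adjusted p = 0.332). None of these values passed, and neither gene's differences were followed further.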
